A study of Homo sapiens with 18 samples.

Results

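The tubulin genes were taken by name from the tables of read counts and expression levels of C4-2B cells, a human prostate cancer cell line of wild-type genotype per the labels. They comprise 10 genes: 3 for alpha-tubulin (TUBA1A, TUBA1B, TUBA1C), 6 for beta-tubulin (TUBB, TUBB2A, TUBB2B, TUBB3, TUBB4B, TUBB6) and 1 for gamma-tubulin (TUBG1). The count tables list 22136 genes after 2 days and 21276 genes after 7 days, and the tables of FPKM (fragments scaled to the length of the gene and the depth of the library) list 26475. Cells received DMSO as the vehicle or 0.1 µM VIC-1911, an inhibitor of the mitotic kinase AURKA, for 2 days. For 7 days they received DMSO, 0.1 µM VIC-1911, 1 µM of the PARP inhibitor olaparib, or both drugs at these doses. Each of the 6 groups had 3 libraries of polyA RNA, 18 in all. The labels do not say whether the libraries of a group came from separate cultures, so the p-values measure the spread between these libraries, which may be technical. All groups are the same cell line.

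Alpha- and beta-tubulin form the dimers that polymerize into microtubules, the fibers of the mitotic spindle, and gamma-tubulin, in a ring complex, starts new microtubules. Human cells express several genes of each family, which differ mainly at the carboxy-terminal tail, and TUBB3 is best known from neurons. Cells adjust tubulin mRNA to the amount of free dimer: when dimer is in excess, TTC5 binds the amino-terminal residues of alpha- and beta-tubulin as they leave the ribosome, and the mRNA is degraded. AURKA acts at the centrosome and the spindle, where it promotes recruitment of gamma-tubulin.

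Total counts ranged from 3245273 to 7184420 per library after 2 days and from 4967931 to 19684208 after 7 days. Each vehicle library of 2 days, at 3245273 to 4545256, was below each VIC-1911 library of 2 days, at 5107326 to 7184420. The part of this difference in depth in the 2-day results was not tested. The 9 luminal prostate markers, among them KLK3, were all expressed. Their summed level was 4388 to 4425 FPKM per library with vehicle after 7 days. It was 3134 to 3306 with VIC-1911, 2933 to 3046 with olaparib and 2899 to 3046 with the combination. Against vehicle, 5, 6 and 6 of the 9 were lower in edgeR's test and 1, 2 and 2 higher. Among all tested genes, 25.8%, 25.9% and 28.0% were lower and 26.6%, 28.1% and 28.6% higher. The basal markers KRT5 and TP63, the stromal markers COL1A2, DCN and LUM and the leukocyte markers PTPRC and CD3E stayed under 0.1 FPKM in every library. The whole lists summed to at most 2.89 FPKM per library for 4 basal markers, 2.63 for 6 stromal and 10.4 for 5 leukocyte markers, and 1, 3 and 1 of these were tested after 7 days. KRT14 was lower with VIC-1911 (log2 fold change -0.58, adjusted p = 0.036, edgeR) and higher with olaparib (0.58) and the combination (0.80), and CD68, a lysosomal protein of macrophages, was higher with olaparib (0.42) and the combination (0.59). Of the stromal markers, PDGFRB was higher with VIC-1911 (0.73), COL1A1 and PDGFRB with olaparib (0.28 and 0.67), and COL1A1 and COL3A1 with the combination (0.43 and 1.28), while COL1A1 was lower after 2 days of VIC-1911 (-0.49). The part of these markers in the tubulin results was not tested. In the labels, the vehicle and VIC-1911 libraries of 7 days carry 1 run of library numbers and the olaparib and combination libraries another. For olaparib or the combination against vehicle or VIC-1911, the run of numbers and the drug cannot be told apart, whereas the vehicle and VIC-1911 groups, like the olaparib and combination groups, can be compared within 1 run. The 3 comparisons with vehicle after 7 days share the same vehicle libraries.

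The start of the coding sequence is shown because its first 4 codons encode the residues through which tubulin mRNA is autoregulated. Below are the first 30 coding bases of the canonical GENCODE v44 transcripts, with these codons in capitals. The 3 alpha genes share 1 sequence, whereas the beta genes keep the encoded residues with varied codons, and TUBG1 begins differently.
TUBA1A, TUBA1B and TUBA1C: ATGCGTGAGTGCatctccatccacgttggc
TUBB: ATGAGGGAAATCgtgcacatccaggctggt
TUBB2A: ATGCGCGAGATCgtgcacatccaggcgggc
TUBB2B: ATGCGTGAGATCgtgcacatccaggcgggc
TUBB3: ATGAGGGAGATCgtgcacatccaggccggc
TUBB4B: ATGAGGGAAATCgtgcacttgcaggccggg
TUBB6: ATGAGGGAGATCgtgcacatccaggcgggc
TUBG1: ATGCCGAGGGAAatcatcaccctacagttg

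The end of the coding sequence is shown for the beta genes because it encodes the tail in which the proteins differ most and because it tells which of them a short read can separate. These are the last 63 coding bases, with the stop codon in capitals.
TUBB2A: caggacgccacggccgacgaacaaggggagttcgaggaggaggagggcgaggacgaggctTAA
TUBB2B: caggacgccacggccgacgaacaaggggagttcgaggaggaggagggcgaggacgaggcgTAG
TUBB3: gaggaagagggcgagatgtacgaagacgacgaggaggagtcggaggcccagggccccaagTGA
TUBB: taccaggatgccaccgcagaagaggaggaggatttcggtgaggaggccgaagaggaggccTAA
TUBB4B: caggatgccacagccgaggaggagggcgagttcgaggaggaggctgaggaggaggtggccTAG
TUBB6: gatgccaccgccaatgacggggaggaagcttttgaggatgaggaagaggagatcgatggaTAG

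The coding sequences of TUBA1A and TUBA1B were 97.2% identical, those of TUBA1B and TUBA1C 96.8%, and those of TUBA1A and TUBA1C 95.9%. TUBB2A and TUBB2B were 98.1% identical, and the other pairs of beta genes were 80.9% to 87.7% identical. Reads from such copies can be assigned to the wrong gene, and neither the strand setting of the counting nor the handling of reads shared between genes is given in the sources used here. Among the 50-base windows of the canonical transcript, an exact copy elsewhere in the genome was found for 62.5% in TUBB2A, 59.4% in TUBA1B, 54% in TUBB2B and 46.2% in TUBA1A. The share was 25.7% in TUBA1C, 25.1% in TUBG1, 23.4% in TUBB, 11.2% in TUBB4B, 9.23% in TUBB3 and 1.09% in TUBB6. With 100-base windows the shares were 54.6% in TUBB2A, 36.9% in TUBA1B, 21% in TUBA1A, 12.1% in TUBA1C and 10.5% in TUBG1. Among the other tested beta genes they were 5.42% in TUBB, 5.35% in TUBB3, 3.01% in TUBB4B and 0% in TUBB6. All values of the 3 alpha genes, of TUBB2A and of TUBG1 below are uncertain to this extent, since their reads may have been split between copies. TUBG1 shared 24.2% of its windows with TUBG2.

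In GRCh38, TUBA1B lies on chromosome 12 from 49127782 to 49131397, TUBA1A from 49184686 to 49189080 and TUBA1C from 49188736 to 49274600. TUBA1B and TUBA1A are antisense to the long noncoding RNA TUBA1B-AS1 over 3616 and 3799 bases, and TUBA1A overlaps TUBA1C on the opposite strand over 345 bases. TUBB lies on chromosome 6 from 30717435 to 30725538, TUBB2A from 3153497 to 3157544 and TUBB2B from 3223324 to 3231730. TUBB3 lies on chromosome 16 from 89921392 to 89938761 and shares 14701 bases with a readthrough gene on the same strand, ENSG00000198211. TUBB4B lies on chromosome 9 from 137241287 to 137243707, TUBB6 on chromosome 18 from 12307669 to 12344320, and TUBG1 on chromosome 17 from 42609641 to 42615238. TUBB6 overlaps AFG3L2 on the opposite strand over 15377 bases.

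TUBA1B had the highest level of the 10 genes in every group on the deposited FPKM scale, followed by TUBB4B, TUBA1C and TUBG1. After 7 days with vehicle, TUBA1B stood at 119 ± 12.8 FPKM (SD, n = 3), TUBB4B at 97.1 ± 5.73, TUBA1C at 58.3 ± 1.98, TUBG1 at 25.4 ± 1.03 and TUBB at 14.9 ± 0.934. Next in order came TUBB6 at 7.66 ± 0.730 FPKM and TUBB3 at 7.20 ± 0.559, whose libraries overlapped, then TUBB2A at 3.55 ± 0.536 and TUBA1A at 1.99 ± 0.422. TUBB2B had between 0 and 3 counts in each of the 18 libraries, with 0 in all 6 libraries of 2 days, and was not tested, so 9 of the 10 genes entered every test. Where a library has 0 counts, up to 3 remain possible from counting error.

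The place of TUBB in this order depended on the gene length. Its deposited FPKM correspond to a length of 32241 bases, 7.92 times its exons in GENCODE v44, whereas the median ratio over 12480 genes was 0.912 and 52 genes had a larger ratio. Most of TUBB was also present on alternate sequences of the assembly, since 94.4% of its 50-base windows had an exact copy on 7 of them. Per kilobase of the canonical transcript, TUBB reached 192 ± 11.04 CPM (counts scaled to the depth of the library) after 7 days with vehicle, against 168 ± 17.0 for TUBA1B and 129 ± 6.92 for TUBB4B, and so stood among the most abundant of the genes. This scale was chosen after the data had been seen. Fold changes of TUBB between groups do not depend on the length.

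**Figure D1:**
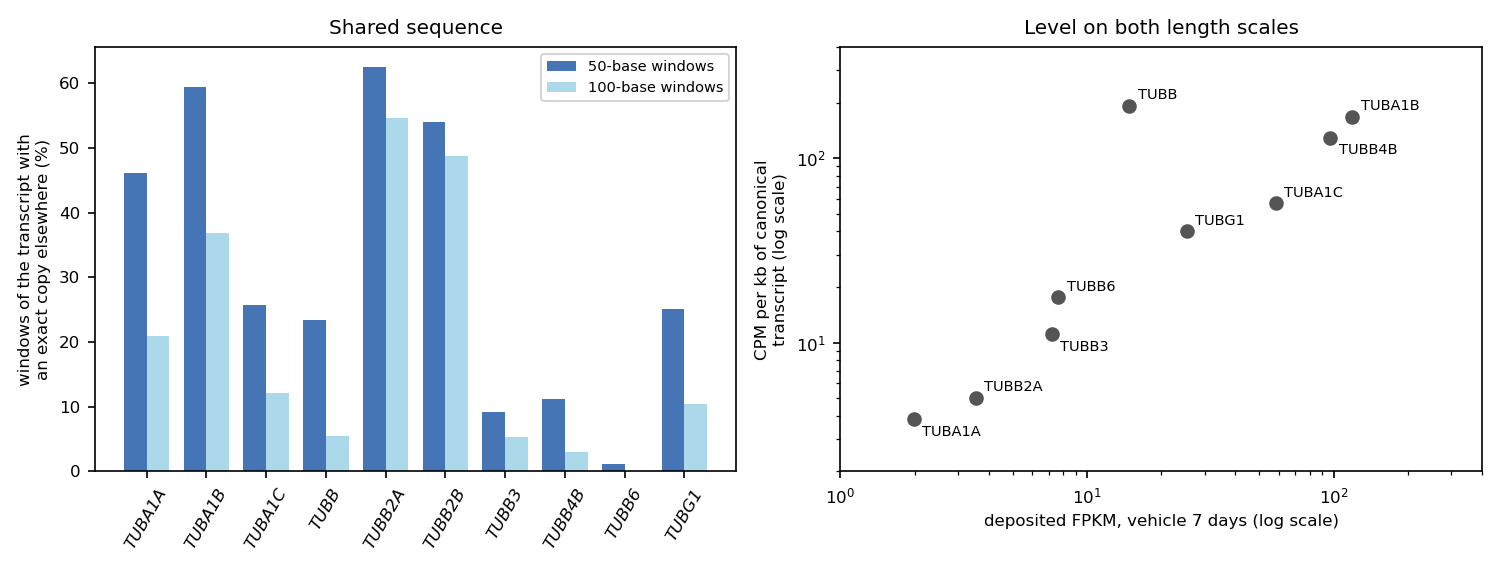
Left, percent of 50-base and 100-base windows of each canonical transcript with an exact copy elsewhere in the genome. Right, mean level of 9 tubulin genes after 7 days with vehicle as deposited FPKM and as CPM per kilobase of the canonical transcript, both on log axes. TUBB, at 14.9 FPKM but 192 CPM per kilobase, stands apart from the other 8 genes.

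After 2 days, VIC-1911–treated cells had higher TUBB3 and TUBB6 and lower TUBA1B and TUBG1 than vehicle-treated cells. In edgeR's quasi-likelihood test, 2 of the 9 genes were higher and 2 lower at a Benjamini-Hochberg adjusted p-value under 0.05, while 7.5% of the 12241 tested genes were higher and 7.19% lower. The median log2 fold change was -0.05 over the 9 genes and -0.003 over all tested genes. TUBB6 was the gene that also reached a 1.5-fold change, as 0.825% of all tested genes did upward.

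TUBB6, a beta-tubulin of wide expression, stood at 6.54, 7.60 and 7.46 FPKM in the vehicle libraries and at 12.04, 12.87 and 10.75 FPKM in the VIC-1911 libraries of 2 days. The groups did not overlap, and the increase was 1.65-fold (log2 fold change 0.72, SE 0.10, adjusted p = 5.51e-07, edgeR). The share of all tested genes without overlap was not computed for any comparison, so absence of overlap only describes the libraries. TUBB3 stood at 5.02, 5.70 and 5.85 FPKM with vehicle and at 8.86, 9.24 and 8.31 FPKM with VIC-1911, again without overlap. Its increase in the counts was 1.42-fold (log2 fold change 0.51, SE 0.13, adjusted p = 0.00436, edgeR).

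TUBA1B, a widely expressed alpha-tubulin, was at 484, 499 and 486 FPKM with vehicle and at 369.7, 404 and 400.1 FPKM with VIC-1911 after 2 days. Each treated library was below each vehicle library, and TUBA1B fell by 0.31 on the log2 scale (SE 0.04, adjusted p = 8.61e-07, edgeR). TUBG1 was at 65.0, 67.5 and 63.5 FPKM with vehicle and at 56.3, 54.9 and 54.7 FPKM with VIC-1911, also without overlap, and it fell by 0.23 (SE 0.05, adjusted p = 0.00277, edgeR). The log2 fold changes of TUBA1C, TUBB, TUBB2A and TUBB4B were between -0.08 and 0.08 and did not pass the test. TUBB2A had only 13 to 39 counts per library. For TUBA1C (adjusted p = 0.288, edgeR) the treated libraries nevertheless all lay below the vehicle libraries. For TUBA1A the log2 estimate was 0.43 (SE 0.22, adjusted p = 0.187, edgeR) on 20 to 65 counts per library. Its 2-day values are uncertain, since the reads behind its FPKM were 0.325 times its counts, against a median of 1.06 over 12124 genes.

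After 7 days of VIC-1911, the most abundant tubulin genes were higher than with vehicle. Of the 9 genes, 7 were higher and 0 lower, against 26.6% higher among all 14409 tested genes, and the median log2 fold change was 0.88 over the 9 genes and -0.005 over all. Neither of the genes that did not pass, TUBA1A and TUBB2A, was lower at an unadjusted p under 0.05, and DESeq2 also called 0 genes lower. TUBA1B, TUBB and TUBB4B also reached a 2-fold change, which 3.46% of all tested genes did upward.

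TUBA1B stood at 134, 112 and 112 FPKM in the 7-day vehicle libraries and at 304, 291 and 311 FPKM in the VIC-1911 libraries. The lowest treated library was above the highest vehicle library, and the increase was 2.45-fold (log2 fold change 1.29, SE 0.06, adjusted p = 7.77e-18, edgeR). For TUBB, the beta-tubulin with the most counts here, the vehicle libraries held 15.9, 14.4 and 14.3 FPKM and the VIC-1911 libraries 33.8, 33.8 and 37.2 FPKM. TUBB rose 2.28-fold (log2 fold change 1.19, SE 0.05, adjusted p = 2.12e-18, edgeR).

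TUBB4B, another beta-tubulin of wide expression, was at 104, 94.6 and 93.0 FPKM with vehicle and at 209, 211 and 233 FPKM with VIC-1911. It rose 2.17-fold (log2 fold change 1.12, SE 0.05, adjusted p = 1.08e-17, edgeR), and the groups did not overlap. TUBG1 was at 26.5, 24.5 and 25.1 FPKM with vehicle and at 47.0, 47.9 and 53.5 FPKM with VIC-1911, a 1.89-fold increase (log2 fold change 0.92, SE 0.06, adjusted p = 1.1e-13, edgeR). TUBA1C, TUBB6 and TUBB3 rose by 0.81, 0.88 and 0.75 on the log2 scale, each without overlap between the groups. TUBA1A (log2 fold change 0.29, adjusted p = 0.123, edgeR) and TUBB2A (-0.04, adjusted p = 0.838) overlapped between the groups.

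The change of the VIC-1911 effect between 2 and 7 days was tested itself, over the 12 vehicle and VIC-1911 libraries of both times. The effect was higher after 7 days for 5 of the 9 genes, against 14.6% of the 13832 genes tested. The difference on the log2 scale was 1.59 for TUBA1B (SE 0.07, adjusted p = 5.3e-23, edgeR), 1.22 for TUBB, 1.13 for TUBG1, 1.03 for TUBB4B and 0.87 for TUBA1C. For TUBB3 and TUBB6, which had risen at both times, it was 0.23 (adjusted p = 0.303) and 0.15 (adjusted p = 0.448). The vehicle levels of the first 5 genes also differed between the times: TUBA1B stood at 489.8 ± 7.77 FPKM after 2 days and 119 ± 12.8 after 7 days, and TUBG1 at 65.4 ± 2.01 and 25.4 ± 1.03. These levels come from tables normalized separately and were not tested against each other.

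**Figure D2:**
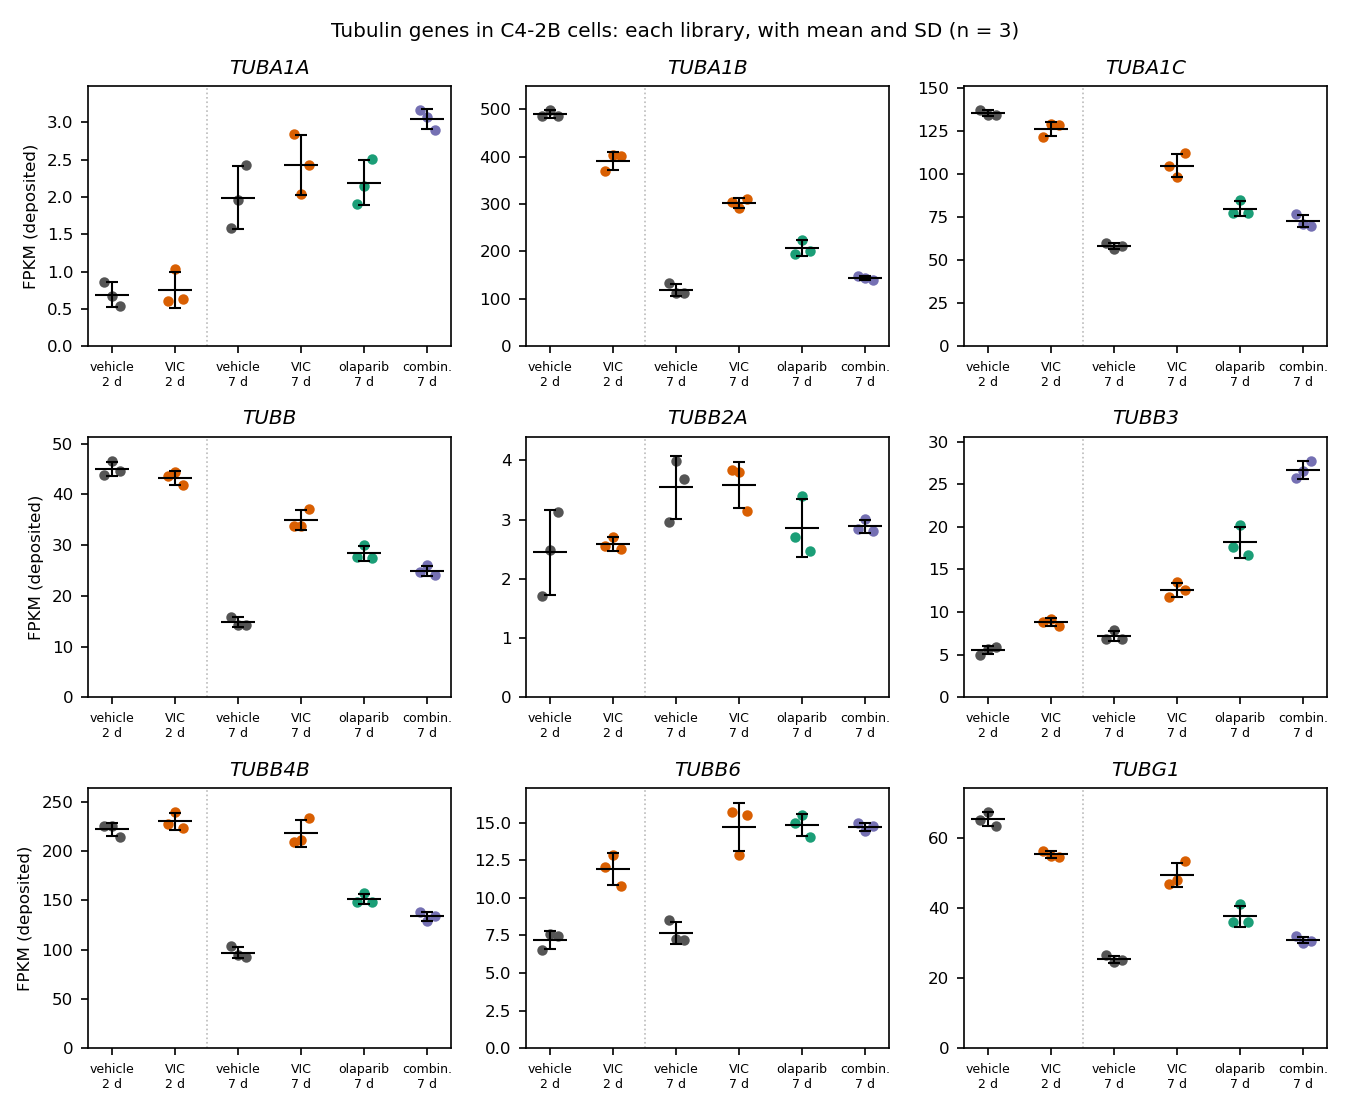
Deposited FPKM of 9 tubulin genes in each of the 18 libraries (points) with the mean and SD of each group (bars, n = 3), with 2 days left of the dotted line and 7 days right of it. After 7 days TUBA1B was highest with VIC-1911 (291 to 311 FPKM), whereas TUBB3 was highest with the combination (25.7 to 27.8 FPKM).

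With olaparib for 7 days, TUBA1B, TUBA1C, TUBB, TUBB3, TUBB4B, TUBB6 and TUBG1 were higher than in the shared vehicle libraries. These were 7 of the 9 genes, where 28.1% of all tested genes were higher, and 0 genes were lower in the edgeR test. At an unadjusted p under 0.05, 1 gene was lower, TUBB2A (log2 fold change -0.32, adjusted p = 0.0761, edgeR), and DESeq2 called 0 genes lower as well. The median log2 fold change was 0.62 over the 9 genes and 0.01 over all tested genes. TUBB3 alone among the 9 genes reached a 2-fold increase, as 3.63% of all tested genes did.

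TUBB3 stood at 6.86, 7.84 and 6.89 FPKM in the 7-day vehicle libraries and at 17.7, 20.2 and 16.7 FPKM in the olaparib libraries. TUBB3 rose 2.48-fold (log2 fold change 1.31, SE 0.08, adjusted p = 5.71e-14, edgeR). TUBA1B, at 194, 225 and 202 FPKM with olaparib, rose 1.72-fold (log2 fold change 0.78, SE 0.06, adjusted p = 9.71e-13, edgeR). The log2 fold changes of TUBB, TUBB6, TUBB4B, TUBG1 and TUBA1C were 0.92, 0.92, 0.62, 0.56 and 0.44, and the olaparib libraries of each lay above all vehicle libraries.

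Set against VIC-1911, olaparib left TUBB3 higher and 5 genes lower, where 11.1% of all tested genes were higher and 12.3% lower. TUBB3 was 1.47-fold higher (log2 fold change 0.56, SE 0.08, adjusted p = 2.62e-06, edgeR). The log2 fold changes were -0.51 for TUBA1B, -0.50 for TUBB4B, -0.36 for TUBA1C, -0.36 for TUBG1 and -0.27 for TUBB. TUBB6 stood at 14.99, 15.52 and 14.06 FPKM with olaparib and at 15.7, 12.9 and 15.5 FPKM with VIC-1911, and its log2 fold change of 0.04 (SE 0.07, adjusted p = 0.727, edgeR) did not pass.

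With both drugs for 7 days, 8 of the 9 genes were higher than with vehicle, against 28.6% of all tested genes, and the median log2 fold change was 0.46 over the 9 genes and 0.005 over all. In the edgeR test 0 genes were lower, 0 had an unadjusted p under 0.05 in that direction, and DESeq2 called 0. TUBB3 rose furthest, to 25.7, 26.6 and 27.8 FPKM, and was the gene past a 2-fold increase, as were 4.55% of all tested genes. Its increase was 3.66-fold (log2 fold change 1.87, SE 0.08, adjusted p = 2.52e-18, edgeR). TUBB6, at 14.95, 14.44 and 14.8 FPKM, rose 1.91-fold, and TUBB, at 24.6, 26.1 and 24.1 FPKM, rose 1.67-fold.

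TUBA1B under the combination was at 149, 145 and 139 FPKM, above the vehicle libraries by a smaller margin than with either drug alone (log2 fold change 0.27, SE 0.06, adjusted p = 0.000152, edgeR). TUBG1, at 31.9, 30.1 and 30.7 FPKM, had a log2 fold change of 0.28 (SE 0.06, adjusted p = 0.000241, edgeR). The values were 0.46 for TUBB4B and 0.32 for TUBA1C, and no library of these 4 genes overlapped with vehicle. TUBA1A stood at 3.17, 3.07 and 2.90 FPKM against 1.58, 1.96 and 2.43 FPKM with vehicle, an increase of 1.59-fold on 53 to 181 counts per library (log2 fold change 0.67, SE 0.15, adjusted p = 0.000277, edgeR).

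**Figure D3:**
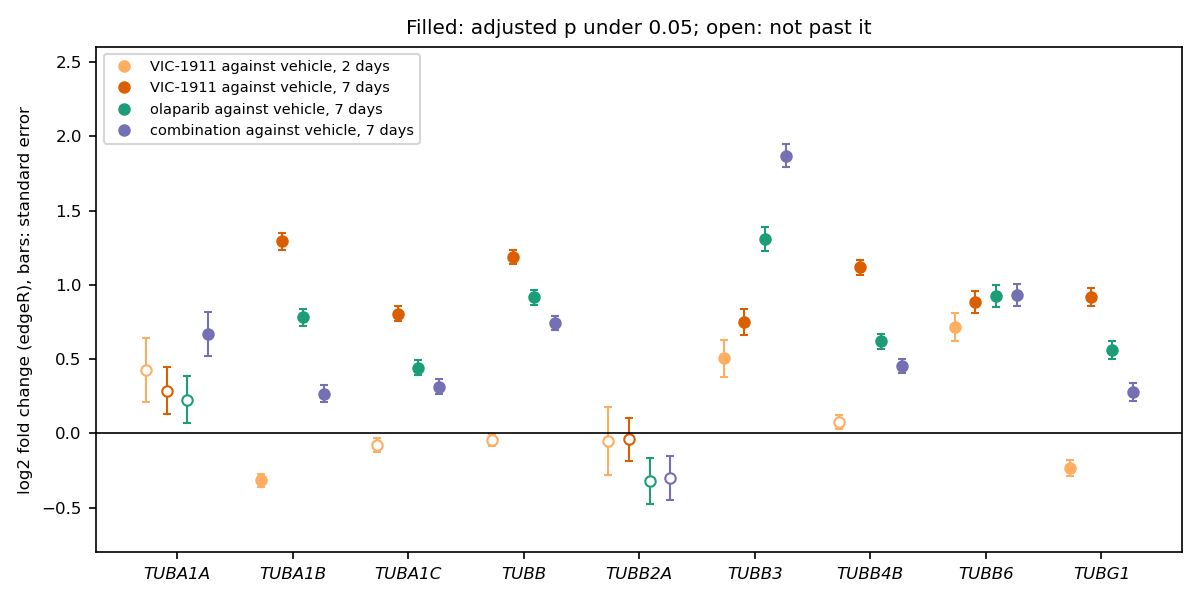
Log2 fold change against the vehicle of the same time (y axis) for 9 tubulin genes (x axis) in 4 comparisons, with the standard error of edgeR's estimate. Filled points passed an adjusted p of 0.05. TUBA1B, TUBA1C, TUBB, TUBB4B and TUBG1 descend from VIC-1911 to olaparib to the combination after 7 days, TUBB3 ascends from 0.75 to 1.87, and TUBB6 stays between 0.88 and 0.93.

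Adding VIC-1911 to olaparib, a comparison within 1 run of library numbers, left TUBB3 and TUBA1A higher and TUBA1B, TUBG1, TUBB and TUBB4B lower. Among all tested genes, 4.55% were higher and 6.95% lower, fewer than in the comparisons with vehicle. TUBB3 rose 1.48-fold over olaparib alone (log2 fold change 0.56, SE 0.07, adjusted p = 1.86e-06, edgeR), with no overlap between 16.7 to 20.2 and 25.7 to 27.8 FPKM. TUBA1B fell by 0.51 on the log2 scale (SE 0.06, adjusted p = 2.55e-07, edgeR), from 194 to 225 FPKM with olaparib to 139 to 149 FPKM. TUBG1 fell by 0.28 (SE 0.06, adjusted p = 0.00177, edgeR).

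The other differences from olaparib were small. TUBB and TUBB4B had log2 fold changes of -0.17 and -0.17 (adjusted p = 0.0161 and 0.0231, edgeR), and both calls were lost in limma on log2(FPKM + 0.1), at adjusted p = 0.0768 and 0.0616. Without olaparib replicate 2 the adjusted p was 0.126 for TUBB and 0.125 for TUBB4B, and without combination replicate 3 it was 0.0966 and 0.0626. Leaving out combination replicate 2 gave 0.0714 for TUBB4B. TUBA1A rose by 0.44 (adjusted p = 0.039, edgeR), but DESeq2 gave an adjusted p of 0.0679 and limma on log2(FPKM + 0.1) 0.0932, and the call was also lost without olaparib replicate 1 (0.096) or 2 (0.17) and without combination replicate 1 (0.119), 2 (0.0582) or 3 (0.0727). TUBA1C, at -0.13 (adjusted p = 0.108), passed without combination replicate 1 (adjusted p = 0.0467). TUBB6 had a log2 fold change of 0.008 (SE 0.07, adjusted p = 0.961, edgeR).

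Compared with VIC-1911 alone, the combination left 2 genes higher and 5 lower, where 20.7% of all tested genes were higher and 22.2% lower. TUBA1B fell by 1.02 on the log2 scale (SE 0.06, adjusted p = 5.67e-15, edgeR), and its level with VIC-1911 was 2.03-fold higher than with the combination. For TUBB4B, TUBG1, TUBA1C and TUBB the log2 fold changes were -0.66, -0.64, -0.49 and -0.44. TUBB3 rose 2.17-fold (log2 fold change 1.12, SE 0.07, adjusted p = 2.75e-13, edgeR). TUBA1A rose by 0.38 (adjusted p = 0.0293, edgeR), a call lost in DESeq2 (0.0708), in limma on log2(FPKM + 0.1) (0.118) and without VIC-1911 replicate 2 (0.165) or 3 (0.0723) or combination replicate 1 (0.0758) or 2 (0.0502).

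The interaction term, that is the log2 change with VIC-1911 on top of olaparib minus that on top of vehicle, was lower than 0 for 6 of the 9 genes, against 22.9% of all tested genes. A value under 0 means that the combination gave less than the sum of the single effects on the log2 scale. TUBA1B had the lowest value of the 9 at -1.80 (SE 0.08, adjusted p = 2.56e-17, edgeR), followed by TUBB at -1.36, TUBB4B at -1.28, TUBG1 at -1.20, TUBA1C at -0.93 and TUBB6 at -0.88. For TUBB6 the single effects of 0.88 and 0.92 were each about as large as that of the combination, 0.93. TUBB3 was at -0.19 (SE 0.11, adjusted p = 0.175, edgeR), with single effects of 0.75 and 1.31 and a combined effect of 1.87.

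Genes of the cell cycle also differed between the treatments. The 14 mitotic cycling genes, such as CDK1, the main mitotic kinase, and MKI67, a proliferation marker, had a summed level of 126 to 184 FPKM with vehicle after 7 days. The sum was 438 to 467 FPKM with VIC-1911, 216 to 259 with olaparib and 155 to 166 with the combination. After 2 days it was 562 to 589 FPKM with vehicle and 516 to 537 with VIC-1911. The rise with VIC-1911 after 7 days is thus relative to a vehicle level below that of 2 days. The sums of the 2 times were normalized separately and not tested against each other. Against vehicle, 14 of these 14 genes were higher with VIC-1911 (median log2 fold change 1.51) and 12 with olaparib (0.48). With the combination 4 were higher and 4 lower (0.05). Among all tested genes, 26.6%, 28.1% and 28.6% were higher and 25.8%, 25.9% and 28.0% lower in these comparisons. The counts with the combination are near these shares and are no result about the list. After 2 days of VIC-1911, 7 were lower and 1 higher (median -0.22), against 7.19% and 7.5% of all tested genes. The part of the mitotic cycling genes in the changes of TUBA1B, TUBB, TUBB4B, TUBA1C and TUBG1 was not tested.

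The mitotic sum of vehicle replicate 1 after 7 days was 184 FPKM, whereas the other vehicle libraries had 126 and 127. TUBA1B in that library was 134 FPKM against 112 and 112. Without it, TUBA1B was higher with the combination by 0.35 on the log2 scale (adjusted p = 2.06e-06, edgeR), and TUBB2A was called lower with the combination (-0.45, adjusted p = 0.0153) and with olaparib (-0.47, adjusted p = 0.0142). Leaving out olaparib replicate 2 gave the olaparib call of TUBB2A as well (adjusted p = 0.0186).

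Per unit of the mitotic sum, the mean of each of the 9 tested genes after 7 days was lowest with VIC-1911. TUBB3 was highest with the combination, where the mitotic sum was near that of vehicle, and TUBB6 was between 12.9 and 15.7 FPKM in all 3 treatments. The ratio of TUBA1B to the sum was 0.832 ± 0.0920 with vehicle, 0.668 ± 0.0257 with VIC-1911, 0.899 ± 0.0285 with olaparib and 0.892 ± 0.0176 with the combination. For TUBB3 these ratios were 0.0513 ± 0.0128, 0.0278 ± 0.00169, 0.0789 ± 0.00270 and 0.165 ± 0.0124, and for TUBB6 0.0536 ± 0.00649, 0.0325 ± 0.00378, 0.0647 ± 0.00480 and 0.0911 ± 0.00434. TUBB had ratios of 0.104 ± 0.0156, 0.0772 ± 0.00245, 0.123 ± 0.00618 and 0.154 ± 0.00371, so it too was highest relative to the sum with the combination. The ratios with vehicle and with the combination were 0.683 ± 0.105 and 0.827 ± 0.0488 for TUBB4B, 0.412 ± 0.0745 and 0.449 ± 0.0191 for TUBA1C, and 0.179 ± 0.0305 and 0.191 ± 0.00910 for TUBG1. These ratios were not tested. Correlation with TUBA1B in log2 CPM over the 12 libraries of 7 days was ranked with the 10 tubulin genes left out. The 5 highest genes were MCM3, H2AFX, DEPDC1B, MCM5 and TOP2A, with Pearson r from 0.991 to 0.996. These points share libraries and group differences, so r is a description.

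**Figure D4:**
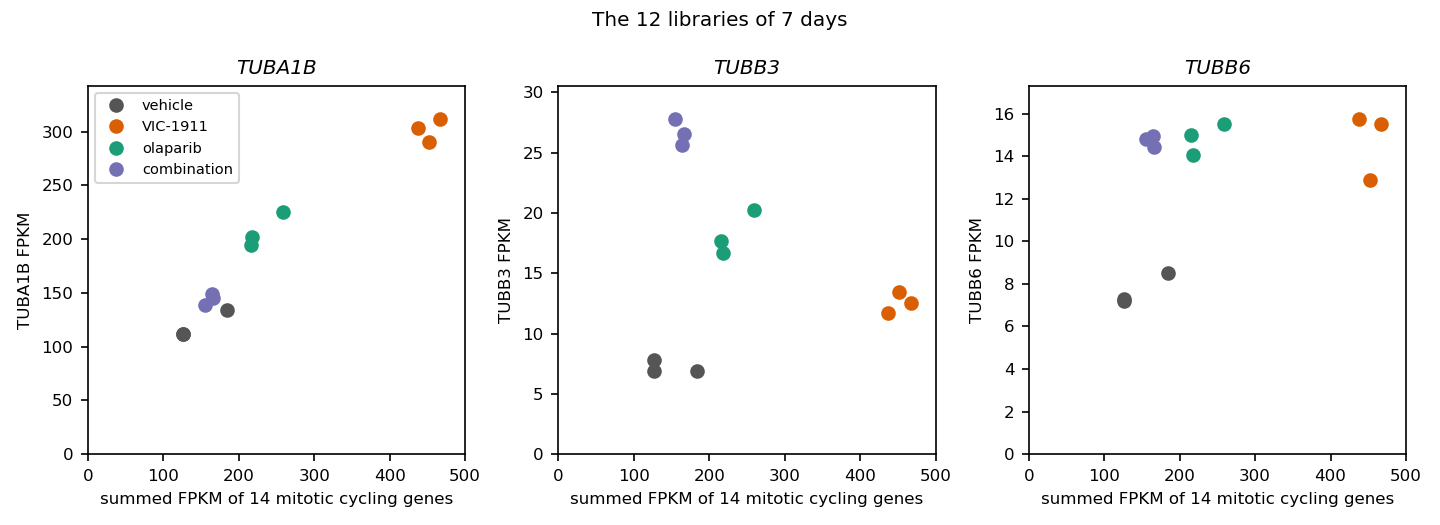
FPKM of TUBA1B, TUBB3 and TUBB6 (y axes) against the summed FPKM of 14 mitotic cycling genes (x axes) in the 12 libraries of 7 days, colored by group. TUBA1B rises along the mitotic sum, from 112 FPKM at 126 to 311 FPKM at 467, TUBB3 is highest at sums of 155 to 166, and TUBB6 is at 12.9 to 15.7 FPKM in all treated libraries.

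Since TUBB3 is used as a neuronal marker, 10 other neuronal markers were examined. Of these, 6, among them DCX, STMN2 and CHGA, were under 0.1 FPKM in every library. The summed level of all 10 was 3.51 to 3.96 FPKM with vehicle after 7 days, 5.79 to 6.18 with VIC-1911, 8.32 to 8.96 with olaparib and 7.88 to 9.41 with the combination. MAP2, a microtubule-associated protein of dendrites, went from 2.16 FPKM with vehicle to 6.67 with the combination (log2 fold change 1.63, adjusted p = 5.08e-17, edgeR), and NEFL, a neurofilament subunit, from 0.107 to 1.31 (3.73, adjusted p = 3.64e-13). SYP, a synaptic vesicle protein, fell by 1.22 (adjusted p = 6.62e-05), and RBFOX3, at 0.87 on the log2 scale, did not pass (adjusted p = 0.0931). These 4 genes are the markers with enough counts for the test, and their part in the TUBB3 result was not tested.

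Among 12 other tubulin genes, 8 had enough counts after 2 days and 10 after 7 days. After 2 days of VIC-1911, 3 were higher (TUBA3D by 0.72, TUBA3E by 0.54 and TUBA4A by 0.25 on the log2 scale) and 1 lower, where 7.5% and 7.19% of all genes were. With VIC-1911 for 7 days, 5 of 10 were higher and 2 lower, against 26.6% and 25.8% of all tested genes. With olaparib 4 were higher and 1 lower, against 28.1% and 25.9%, and with the combination 4 and 1, against 28.6% and 28.0%. TUBA4A, an alpha-tubulin, was highest with VIC-1911. It stood at 14.5 ± 1.36 FPKM with vehicle, 41.0 ± 2.55 with VIC-1911, 30.4 ± 0.662 with olaparib and 25.9 ± 0.571 with the combination. Its log2 fold changes against the 7-day vehicle were 1.44, 1.04 and 0.82. TUBA3D and TUBA3E, close paralogs of each other, rose by 1.59 and 1.12 with VIC-1911 and by 1.42 and 0.71 with the combination. The span of TUBA3D lies wholly within that of MZT2A on the opposite strand. Overlap of their exons was not examined, so reads of the 2 genes may or may not be separable without strand. TUBA3C passed the test in the 3 treatments on 0 to 5 counts per vehicle library and 6 to 32 per treated library. Exact copies were not searched for these other tubulin genes, so reads of TUBA3C, TUBA3D and TUBA3E may or may not be separable.

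TUBE1, which encodes the epsilon-tubulin of centrioles, went the other way. It stood at 10.7, 12.7 and 9.87 FPKM with vehicle after 7 days and at 3.30, 2.93 and 3.14 FPKM with VIC-1911. Its log2 fold change was -1.90 with VIC-1911 (SE 0.11, adjusted p = 1.84e-14, edgeR), -1.77 with olaparib and -1.57 with the combination. After 2 days of VIC-1911 it fell by 0.51 (adjusted p = 0.01, edgeR), a call lost in DESeq2 (adjusted p = 0.0849) and without vehicle replicate 2 (0.122) or VIC-1911 replicate 1 (0.0747). TUBG2, the second gamma-tubulin, fell by 0.23 with VIC-1911 after 7 days (adjusted p = 0.0081), and TUBD1, the delta-tubulin, rose by 0.32 (adjusted p = 0.0179). The TUBD1 call was lost without vehicle replicate 2 (0.11) and without VIC-1911 replicate 1 (0.0545) or 3 (0.0881). TUBA8, TUBB1 and TUBB4A did not pass in any comparison with vehicle, but TUBA8 passed as lower with the combination without vehicle replicate 2 (-0.72, adjusted p = 0.0313), and TUBB1 as higher with VIC-1911 without VIC-1911 replicate 3 (1.51, adjusted p = 0.0205).

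Of 20 genes that fold tubulin, 15 were higher in each 7-day treatment against vehicle, with 0 lower with VIC-1911 and 1 lower with olaparib and with the combination. Among all tested genes, 26.6%, 28.1% and 28.6% were higher and 25.8%, 25.9% and 28.0% lower in these comparisons. Their median log2 fold changes were 0.36, 0.26 and 0.32. CCT6A, CCT3 and CCT7, subunits of the chaperonin that folds tubulin and actin, rose by 0.49, 0.46 and 0.47 with the combination (adjusted p = 4.19e-11, 5.67e-11 and 8.15e-10, edgeR). CCT3 stood at 134 FPKM with vehicle and 184 FPKM with the combination.

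Of 20 genes for the gamma-tubulin ring complex and its recruiting factors, 10 were higher and 2 lower with VIC-1911 after 7 days, and 3 higher and 8 lower with the combination. The shares over all tested genes were 26.6% higher and 25.8% lower with VIC-1911, and 28.6% and 28.0% with the combination. HAUS4, a subunit of the augmin complex that branches spindle microtubules, fell by 0.90 with the combination (SE 0.12, adjusted p = 3.1e-07, edgeR). AKAP9, a scaffold of centrosomes and the Golgi, fell by 0.29, and HAUS6, another augmin subunit, rose by 0.28. TUBG1 itself was higher in all 3 treatments.

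For 16 genes of tubulin modification, 3 were higher and 5 lower with the combination, beside 28.6% and 28.0% of all tested genes, and nothing about the list is read from these counts. SIRT2, a deacetylase of alpha-tubulin, and AGBL5, a carboxypeptidase that removes glutamates, had log2 fold changes of -0.53 and -0.56 (adjusted p = 6.28e-09 and 8.64e-09, edgeR), and TTLL12 rose by 0.38 (adjusted p = 8.61e-09). Of 21 genes of microtubule dynamics, 8 were higher and 6 lower with the combination, and with the same shares over all tested genes these counts are no result about the list. MAP1B, a microtubule stabilizer of neurons, fell by 1.08 (adjusted p = 1.38e-13, edgeR), from 9.83 to 4.66 FPKM, and MAP4 fell by 0.42 (adjusted p = 4.99e-09). MAPRE2, which binds microtubule ends, rose by 1.33 from 0.589 to 1.57 FPKM (adjusted p = 1.16e-08). With VIC-1911, MAP1B stood at 2.79 FPKM.

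Of 3 factors of tubulin mRNA autoregulation, 1 was higher and 1 lower with the combination, where 28.6% and 28.0% of all tested genes were. SCAPER, which links TTC5 to the CCR4-NOT deadenylase, fell by 0.61 with the combination (SE 0.09, adjusted p = 1.33e-06, edgeR), from 3.66 to 2.44 FPKM. TTC5 rose by 0.24 (adjusted p = 0.0354, edgeR), a call lost in DESeq2 (adjusted p = 0.0883) and without vehicle replicate 2 (0.321) or 3 (0.0761) or combination replicates 1, 2 and 3 (0.0608, 0.0684 and 0.073). CNOT11 did not pass.

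Promoters are shown for genes with different patterns. TUBB4B and TUBA1C were among the genes highest with VIC-1911 after 7 days, and TUBB3 was highest with the combination. Each sequence is the 250 bases before a transcription start in RefSeq (GRCh38.p14), and capitals mark the motifs CCAAT, either TTTGAA or else TTTAAA, and also GGGCGG, on both strands. All 10 genes had at least 1 of 15 promoter entries. For TUBB3 and TUBA1C, 1 of several entries is shown. The other TUBB3 entry, chr16:89921675-89921924, held 0 of these motifs, and the other TUBA1C entries held fewer than the one shown.
TUBB4B, chr9:137241037-137241286, plus strand: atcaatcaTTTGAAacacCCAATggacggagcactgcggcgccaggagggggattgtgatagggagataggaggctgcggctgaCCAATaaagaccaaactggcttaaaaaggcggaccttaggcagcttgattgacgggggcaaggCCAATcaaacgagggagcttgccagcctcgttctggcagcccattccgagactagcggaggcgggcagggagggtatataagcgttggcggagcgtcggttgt
TUBA1C, chr12:49264832-49265081, plus strand: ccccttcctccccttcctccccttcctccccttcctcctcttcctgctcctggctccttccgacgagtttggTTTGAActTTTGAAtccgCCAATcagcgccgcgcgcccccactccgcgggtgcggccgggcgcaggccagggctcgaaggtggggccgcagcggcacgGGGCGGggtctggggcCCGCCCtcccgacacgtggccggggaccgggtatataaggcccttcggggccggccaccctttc
TUBB3, chr16:89923092-89923341, plus strand: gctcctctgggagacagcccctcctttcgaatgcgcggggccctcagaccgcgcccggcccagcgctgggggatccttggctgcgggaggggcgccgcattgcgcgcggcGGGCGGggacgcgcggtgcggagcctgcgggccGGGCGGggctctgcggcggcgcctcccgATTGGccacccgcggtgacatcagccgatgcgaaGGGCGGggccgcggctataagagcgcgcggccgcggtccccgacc

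CCAAT was found in 8 of the 10 genes, in any entry, and in 32% of the 35116 promoters of the table. TTTGAA or TTTAAA, the letters of the cell cycle homology region, was found in TUBB4B and TUBA1C, that is in 2 of 10 genes, against 21.9% of all promoters. TUBA1B, TUBB and TUBG1, also highest with VIC-1911 after 7 days, held neither in any entry. The promoters shown thus do not stand for all genes of that pattern. GGGCGG was found in 8 of 10 genes, against 42.6%. A gene with several entries had more chances to hold a motif than 1 promoter. TUBA1B and TUBB2A held no CCAAT in their windows.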

How the data were processed

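RNA sequencing of polyA RNA from C4-2B cells was analysed in 18 libraries of 6 groups, assigned from the sample labels, with 3 libraries each. Per the labels and the study's methods, the authors trimmed paired-end reads with Trimmomatic and aligned them to GRCh38 with STAR (version 2.6.0 in the submitters' processing notes). The authors deposited raw read counts per gene, which were tested as deposited, and FPKM values made with their own script, which are normalized to gene length and depth and were used for levels. The annotation, the strand setting and the handling of reads shared between genes are not given in the sources used here. The deposited FPKM and count tables name genes by symbol.

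Genes that reached 10 counts in 3 or more libraries entered edgeR's quasi-likelihood test (edgeR 4.0.16, R 4.3.3, TMM factors) in 1 fit for 2 days (12241 genes), 1 for 7 days (14409) and 1 over both times for vehicle and VIC-1911 (13832), with Benjamini-Hochberg adjustment over all genes tested. A gene passed at an adjusted p under 0.05, and a second count asked for a fold of 1.5 after 2 days or 2 after 7 days. Alternatives were other scalings, DESeq2 1.42.0, no filter, the compared groups alone, a replicate block, limma 3.58.1 on log2(FPKM + 0.1) and log2(FPKM + 1), and each library left out in turn. Gene positions, lengths and exact copies came from GENCODE v44 and GRCh38, and promoters from RefSeq. Named genes were all 10 tubulin genes, the other tubulin genes that passed the filter, and up to 3 genes of each other list. The latter had the smallest adjusted p for the combination against vehicle. Also named were the 5 genes most correlated with TUBA1B, with the 10 tubulin genes left out of that ranking. Marker genes of cell types were named outside this rule, after their values were seen. The members and lists were chosen with earlier results of these data known. Statistics were tested on simulated data. The ends of the alpha coding sequences are not reported here.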

Additional observations from a re-analysis of the deposited data

Results flagged for a closer look

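In 11 results the effect of a drug differed between settings by a test of the difference itself (edgeR's quasi-likelihood test, adjusted p under 0.05). For the interaction of the drugs after 7 days, the effect of VIC-1911 on top of olaparib was below its effect on vehicle, by -1.80 on the log2 scale for TUBA1B, -1.36 for TUBB, -1.28 for TUBB4B, -1.20 for TUBG1, -0.93 for TUBA1C and -0.88 for TUBB6. Between the times, the effect of VIC-1911 against vehicle was higher after 7 days than after 2 days by 1.59 for TUBA1B, 1.22 for TUBB, 1.13 for TUBG1, 1.03 for TUBB4B and 0.87 for TUBA1C. The 14 mitotic cycling genes moved in the same direction in both tests. In the interaction 14 of 14 were below 0, against 22.9% of all tested genes. Between the times 14 of 14 were above 0, against 14.6%. The part of the mitotic cycling genes in these results was not tested.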

How the results depend on the processing

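Of 81 results (9 genes in 9 comparisons), 56 passed the threshold, and 52 of these passed in the same direction under every alternative run. The other 4 were TUBA1A, TUBB and TUBB4B for the combination against olaparib and TUBA1A for the combination against VIC-1911. For the combination against olaparib, the number of genes higher was 1 in DESeq2 and in limma with either pseudocount, and the number lower was 2 in limma with either. For the combination against VIC-1911, the number higher was 1 in DESeq2 and both limma fits. With 1 library left out, the number was 0 to 1 lower for olaparib and for the combination against vehicle, 1 to 2 higher and 2 to 5 lower for the combination against olaparib, and 1 to 2 higher for the combination against VIC-1911. The cause was not tested.

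Signs changed only among results that had not passed. For VIC-1911 after 2 days, TUBG2 was at -0.011 with upper-quartile factors and -0.003 with no scaling beyond library size, and TUBB2A at 0.118 and 0.079 in limma with the small and large pseudocount. After 7 days of VIC-1911, TUBB4A was at 0.007 with no scaling and TUBB2A at 0.024 and 0.018 in limma. With olaparib, TUBA8 was at -0.016 in DESeq2 and -0.006 with the compared groups alone. With the combination, TUBB4A was at 0.013 with upper-quartile factors and 0.046 with no scaling. For the combination against olaparib, TUBB6 was at -0.005 with no filter, and at -0.011 in limma with the small pseudocount and -0.011 with the large. For the difference between the times, TUBB2A was at 0.042 with no scaling, 0.001 in DESeq2 and 0.003 with no filter.

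With 1 library left out, the log2 fold changes that changed sign had these ranges. The range under VIC-1911 after 2 days was -0.096 to 0.138 for TUBG2 and -0.206 to 0.209 for TUBB2A. For VIC-1911 after 7 days it was -0.124 to 0.091 for TUBB4A, -0.129 to 0.655 for TUBA8 and -0.196 to 0.084 for TUBB2A. The range under olaparib was -0.430 to 0.353 for TUBA8. For the combination it was -0.126 to 0.120 for TUBB4A and -0.720 to 0.064 for TUBA8. The range under the combination against olaparib was -0.038 to 0.044 for TUBB6 and -0.130 to 0.200 for TUBB2A. For the combination against VIC-1911 it was -0.038 to 0.092 for TUBB6. The range under olaparib against VIC-1911 was -0.189 to 0.043 for TUBA1A and -0.045 to 0.086 for TUBB6. For the interaction it was -0.091 to 0.239 for TUBB2A. The range under the difference between the times was -0.265 to 0.166 for TUBB2A.

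The share of TUBB in the summed level of the 10 genes, 4.43% to 5.50% by FPKM, was 4.389% (vehicle) and 4.719% (VIC-1911) after 2 days with CPM divided by the length behind the FPKM. Per kilobase of the canonical transcript, an alternative chosen after seeing the data, it was 30.61% and 32.25% after 2 days, and 30.83% (vehicle), 32.06% (VIC-1911), 34.4% (olaparib) and 35.55% (combination) after 7 days.

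Deviations from the group means were correlated over all genes between libraries of different groups. With the same replicate number, r was -0.00284 to 0.0439 after 2 days (median 0.00144) and -0.0355 to 0.111 after 7 days (median 0.017). With different numbers the medians were -0.0171 and -0.00973. Such deviations may be mostly counting error, so these values cannot tell whether the libraries were paired. With the replicate block, no call changed among the 9 genes, TUBB6 for the combination against olaparib was at -0.007, and TUBB1 passed for VIC-1911 after 7 days (1.20, adjusted p = 0.0496). Of the 10 genes, TUBB2B had the lowest counts, at 0 to 3 per library. Next came TUBB2A and TUBA1A, at 13 to 39 and 20 to 65 per library after 2 days.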
